A study of Homo sapiens with 12 samples.

Results

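The genes described here are 10 components of the circadian clock, taken by name from the 62696 genes counted in each table: the repressors BHLHE40, BHLHE41, PER1, PER2, PER3, CRY1 and CRY2, the activator CLOCK, the nuclear receptor NR1D1 and the output factor DBP. The set was chosen by the TWEAK log2 fold change of BHLHE40 in these libraries, to which other clock genes were added by their role, so the TWEAK contrasts of these genes are given as a description and are not evidence about the set. RNA-seq counts were analysed from 2 cell lines of the HER2 type of breast cancer (SKBR3 and MDA-MB-453), each with 3 untreated (UT) and 3 TWEAK-treated replicates, 12 libraries in all. TWEAK is a cytokine of the TNF superfamily that binds the receptor Fn14 and is known to activate NF-κB signalling. Treated cultures were kept in Opti-MEM for 8 h as starvation and then received 10 ng/ml TWEAK for 48 h, with fresh TWEAK at 24 h, per the labels. Labels of untreated replicates repeat this text, starvation included, and give no separate protocol for them. Both are established cell lines with no engineered allele named, and each stands for 1 line only, so a test between them is over cultures of these lines. Every library was harvested at 1 time point, so these data hold levels and no phase or rhythm.

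The clock is a loop of transcription and translation that runs in most cell types. CLOCK pairs with BMAL1, binds E-box sequences and activates the PER and CRY genes, whose proteins return to the nucleus and repress that pair. BHLHE40 and BHLHE41, also called DEC1 and DEC2, are basic helix-loop-helix repressors that bind E-boxes themselves, and both are also known to respond to hypoxia and other stimuli outside the clock. NR1D1, or REV-ERBα, represses BMAL1 in a second loop, and DBP activates genes through D-box sequences as an output of the clock.

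Promoter sequences are shown first because the E-box is the element through which the activator and most of these repressors act. They were taken from RefSeq promoters on GRCh38.p14, 250 bases before to 50 bases after each annotated start, which cover all 10 genes. The letters CACGTG were searched on both strands, and were found for BHLHE40, BHLHE41 and PER1. They are given on the strand of the gene, 5′ to 3′, with the E-box in capitals and the position of its first base relative to the start.
BHLHE40, position -245, chr3:4979192-4979197, + strand: tccaaCACGTGagactcatgtga
BHLHE41, position -48, chr12:26125080-26125085, - strand: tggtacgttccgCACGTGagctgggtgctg
PER1, position -173, chr17:8152572-8152577, - strand: agcacccaggtcCACGTGcgcccgtgtgtg
Of 27305 genes with a RefSeq promoter, 8.77% held the same letters in at least 1 window. A variant with 1 mismatch, CACGTT or AACGTG, lay in a window of PER2, CRY1, CRY2, CLOCK and NR1D1, against 6.44% of all genes. The CRY1 and NR1D1 windows are shown with those letters in capitals.
CRY1, position -89, chr12:107093633-107093638, - strand: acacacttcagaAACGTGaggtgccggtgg
NR1D1, position -168, chr17:40100752-40100757, - strand: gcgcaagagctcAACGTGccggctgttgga
D-box letters, TATGTAA or TACGTAA on both strands, lay in windows of PER2, PER3 and CRY2, against 3.49% of all genes, and those of PER2 were 2 matches that overlapped. The core of the ROR and REV-ERB element, TAGGTCA or TGGGTCA, lay in windows of CRY2 and CLOCK, against 6.94%. Matches to the NF-κB consensus lay in the CLOCK window, 2 that overlapped, and in that of no other gene of the 10, against 7.09% of all genes. A match is a description of letters in a window and does not show binding. The 250 bases upstream of BHLHE40, the gene of the 10 with the largest TWEAK difference in SKBR3, are printed in full with the E-box in capitals.
BHLHE40, chr3:4979187-4979436, + strand: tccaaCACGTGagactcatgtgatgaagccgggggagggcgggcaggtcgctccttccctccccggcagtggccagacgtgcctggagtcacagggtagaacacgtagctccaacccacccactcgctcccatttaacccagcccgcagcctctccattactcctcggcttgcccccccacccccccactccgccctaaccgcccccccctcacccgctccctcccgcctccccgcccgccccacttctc

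SKBR3 libraries held 24842722 to 28647209 counts and MDA-MB-453 libraries 24773003 to 35208304. Replicate 2 of the TWEAK-treated libraries was the farthest from the others of its group in both lines. The chi-square of its counts against each of them, per degree of freedom, was 18.7 and 21.1 in SKBR3, against 2.09 for the remaining pair. It was 9.20 and 4.85 in MDA-MB-453, against 2.67, and pairs of untreated replicates gave 1.70 to 5.20. Of the markers checked, ERBB2 lay at 7401 to 7900 CPM in SKBR3 and 846 to 901 CPM in MDA-MB-453. ESR1, the oestrogen receptor, which rose with TWEAK in SKBR3, reached at most 1.59 CPM. Markers of other cells that could be present were PTPRC, PECAM1 and KRT14, each at most 0.202 CPM, and COL1A1, at 16.9 to 20.6 CPM in SKBR3 and 106 to 123 CPM in MDA-MB-453. KRT5, a basal keratin, lay at 0.207 to 0.359 CPM in untreated and 2.54 to 4.0 CPM in TWEAK-treated SKBR3 (log2 fold change 3.46, SE 0.28), on 5 to 10 and 61 to 99 counts. It passed the filter through its treated libraries, so this is a description. KRT19, a luminal keratin, held 3595 to 3974 CPM in untreated and 4284 to 5397 CPM in treated SKBR3, where it rose (log2 fold change 0.32, SE 0.0908, edgeR adjusted p 0.0608). KRT19 lost that call at an adjusted p of 0.05, with a replicate block and without untreated replicate 1 or 2 (edgeR adjusted p up to 0.247). The part of both keratins in the differences below was not tested. In bulk libraries a difference in the share of cells and one in RNA per cell cannot be told apart.

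BHLHE40 (ENSG00000134107, chr3:4979437-4985323, + strand, hg38) was the gene of the set that differed most with TWEAK in SKBR3. Levels are given in CPM, counts scaled to the size of each library and normalised with TMM factors over the 12 libraries. The untreated SKBR3 replicates held 42.2, 37.9 and 43.6 CPM, and the TWEAK-treated replicates 106, 95.6 and 102 CPM. The means were 41.2 ± 2.94 and 101 ± 5.18 CPM (SD, n = 3), a ratio of 2.46, and the lowest treated replicate lay above every untreated one. Its log2 fold change was 1.29 (SE 0.0731) and lay between 1.23 and 1.34 when any 1 library was left out. In MDA-MB-453 the untreated replicates held 209, 218 and 223 CPM and the treated ones 224, 236 and 228 CPM, so the groups did not overlap, yet the ratio of the means was 1.06, and the log2 fold change 0.08 (SE 0.0387). The TWEAK effect in SKBR3 exceeded that in MDA-MB-453 by 1.21 on the log2 scale (SE 0.0807). With TWEAK, SKBR3 did not reach the level of untreated MDA-MB-453, whose lowest replicate held 209 CPM. An antisense lncRNA, BHLHE40-AS1, shares 12.8% of the exonic bases of BHLHE40. It held 0.330 to 1.98 CPM over the 12 libraries, against 37.9 to 236 CPM for BHLHE40.

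**Figure D1:**
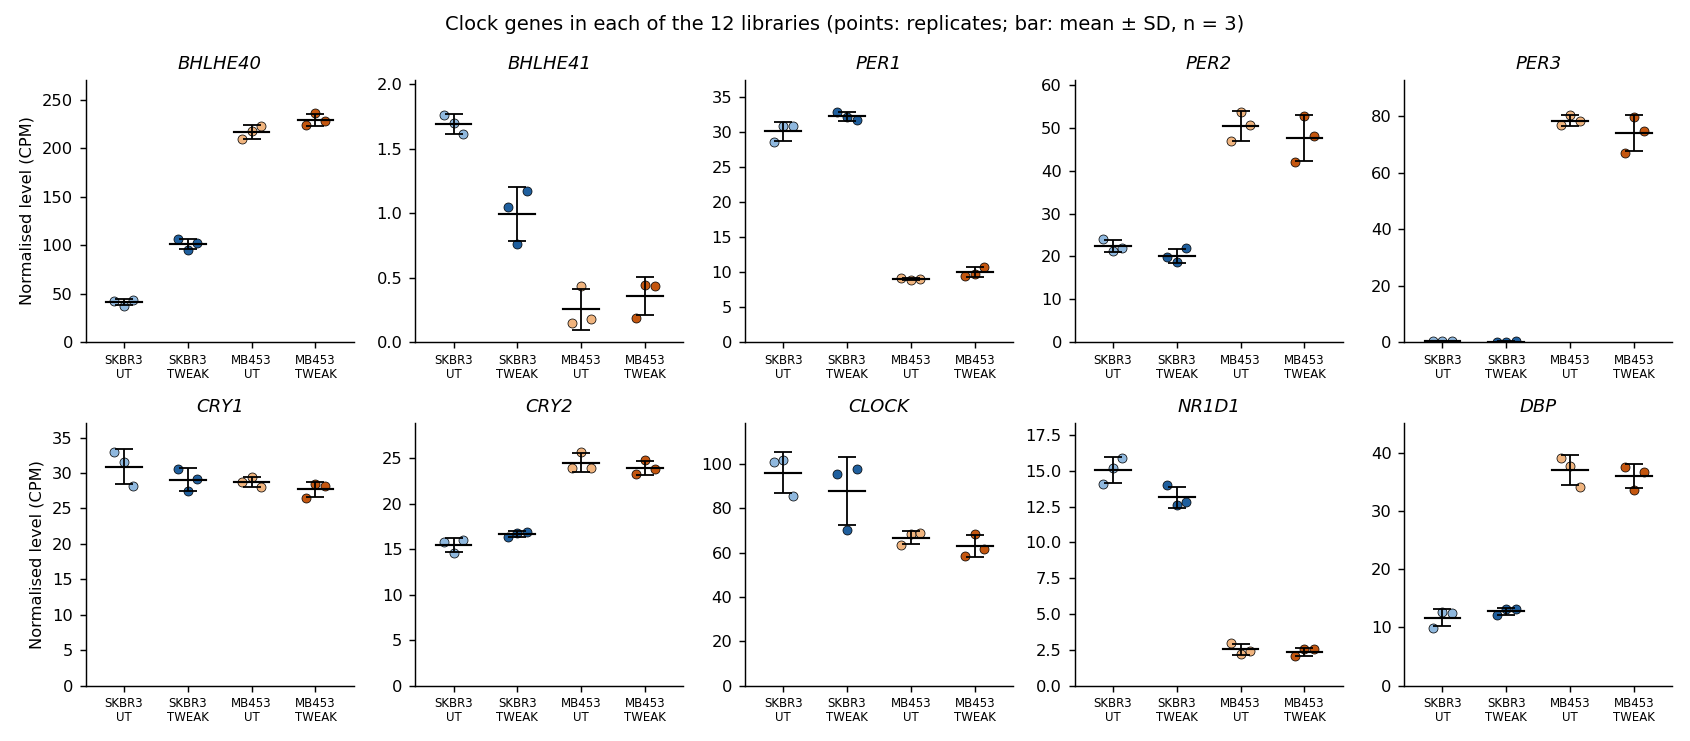
Normalised level (CPM, vertical axis from 0) of the 10 clock genes in untreated (UT) and TWEAK-treated replicates of SKBR3 and MDA-MB-453 (MB453), with points for replicates and bars for the mean ± SD (n = 3). BHLHE40 goes from 41.2 to 101 CPM with TWEAK in SKBR3, against 217 and 230 CPM in MDA-MB-453. Most panels, that of BHLHE40 included, differ more between the untreated lines than with treatment.

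BHLHE41 (ENSG00000123095, chr12:26120030-26125037, - strand), the paralogue of BHLHE40, went the opposite way in SKBR3 at a much lower level. The untreated replicates held 1.76, 1.70 and 1.61 CPM and the treated ones 1.05, 0.761 and 1.17 CPM, which rest on 39 to 49 and 19 to 28 counts per library. The groups did not overlap, the ratio of the means was 0.589 and the log2 fold change -0.77 (SE 0.21). BHLHE41 lay past the threshold used below, but not with DESeq2, nor when any 1 untreated replicate or TWEAK replicate 1 or 2 was left out. Its log2 fold change lay between -0.90 and -0.61 over the fits that left out 1 library. In MDA-MB-453 it held 4 to 16 counts per library, and its log2 fold change of 0.51 (SE 0.46) came from replicates that overlapped. The difference between the lines in its TWEAK effect, -1.27 (SE 0.50), did not pass the threshold.

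By the threshold used throughout, an adjusted p of at most 0.1 in edgeR, BHLHE40 was called higher and BHLHE41 lower in SKBR3, and 7 of the 9 genes tested were not called. Of all 15661 genes tested there, 6.60% were called higher and 3.82% lower, and the median log2 fold change was -0.09 in the 9 clock genes and -0.01 in all genes. In MDA-MB-453 0 of the 10 genes were called in either direction by edgeR and by DESeq2, and 1 had an unadjusted p under 0.05. Of all 14929 genes tested in that line, 1.29% were called higher and 0.208% lower, and the medians were -0.05 and 0.00. For the difference between the lines, 1 gene of the 10, BHLHE40, was called higher in SKBR3 and 0 lower, with 2 at an unadjusted p under 0.05, where 2.36% of 17201 genes were called higher and 1.01% lower. The genes were chosen with these contrasts known, so their counts are not evidence about the set.

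The period genes encode the PER proteins, which carry the CRY proteins into the repressor complex. PER1 (ENSG00000179094, chr17:8140472-8156506, - strand) is also a direct target of the glucocorticoid receptor. It held 28.6, 30.9 and 30.9 CPM in untreated and 32.9, 32.2 and 31.7 CPM in treated SKBR3 (log2 fold change 0.09, SE 0.0676). In MDA-MB-453 it held 9.21, 8.85 and 9.10 CPM without and 9.46, 9.77 and 10.8 CPM with TWEAK (0.16, SE 0.0777). In both lines every treated replicate lay above every untreated one, and PER1 was called in neither. PER2 (ENSG00000132326, chr2:238244044-238290102, - strand) held 24.1, 21.3 and 22.0 CPM without and 19.8, 18.7 and 21.9 CPM with TWEAK in SKBR3 (-0.16, SE 0.0851), and 46.8, 53.7 and 50.6 against 42.0, 52.6 and 48.1 CPM in MDA-MB-453 (-0.08, SE 0.0714). The replicates of PER2 overlapped in both lines.

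PER3 (ENSG00000049246, chr1:7784291-7845177, + strand) was almost not detected in SKBR3, where the untreated libraries held 10, 10 and 11 counts (0.409 ± 0.0474 CPM) and the treated ones 4, 7 and 9 (0.272 ± 0.107 CPM). It was too low there to be tested within the line. MDA-MB-453 held 76.8, 80.4 and 78.1 CPM without and 67.1, 79.7 and 74.9 CPM with TWEAK (-0.09, SE 0.0546), and these replicates overlapped. UTS2 runs antisense to PER3 and overlaps 10.7% of its exonic bases. When TWEAK replicate 2 of MDA-MB-453 was left out, PER2 (-0.16, SE 0.0568), PER3 (-0.14, SE 0.0450) and CLOCK (-0.15, SE 0.0452) were called lower in that line. The same fit called 1098 of all genes lower, against 31 with all 6 libraries.

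The cryptochromes CRY1 and CRY2, the repressors of the CLOCK and BMAL1 pair, differed little with TWEAK. CRY1 (ENSG00000008405, chr12:106991364-107093549, - strand) held 30.8 ± 2.48 CPM without and 29.1 ± 1.57 CPM with TWEAK in SKBR3 (log2 fold change -0.09, SE 0.0803), and 28.7 ± 0.724 and 27.7 ± 1.04 CPM in MDA-MB-453 (-0.05, SE 0.0508). CRY2 (ENSG00000121671, chr11:45847118-45883248, + strand) held 15.8, 14.6 and 16.0 CPM without and 16.3, 16.8 and 16.9 CPM with TWEAK in SKBR3 (0.10, SE 0.0767), where the groups did not overlap. In MDA-MB-453 CRY2 held 24.5 ± 1.0 and 24.0 ± 0.785 CPM (-0.03, SE 0.0542), and the groups overlapped.

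CLOCK (ENSG00000134852, chr4:55427903-55546909, - strand), the DNA-binding activator, held 101, 102 and 85.5 CPM in untreated and 95.5, 70.3 and 97.9 CPM in treated SKBR3. The lowest value was that of TWEAK replicate 2, and the log2 fold change of -0.14 (SE 0.12) went to 0.00 without it. In MDA-MB-453 CLOCK held 66.8 ± 2.87 CPM without and 62.9 ± 4.90 CPM with TWEAK (-0.09, SE 0.0552).

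NR1D1 (ENSG00000126368, chr17:40092793-40100589, - strand), the repressor of BMAL1, held 14.1, 15.2 and 15.9 CPM in untreated and 14.0, 12.6 and 12.8 CPM in treated SKBR3 (-0.20, SE 0.0847). Its treated replicates all lay below the untreated ones, and it was not called, although a correction for GC content and gene length called both it (-0.29, SE 0.0867) and PER2 (-0.22, SE 0.0737) lower. THRA, which encodes a thyroid hormone receptor, runs antisense to NR1D1, overlaps 18.0% of its exonic bases and was more abundant in SKBR3. THRA fell there from 138 ± 5.60 to 94.8 ± 4.65 CPM (log2 fold change -0.55, SE 0.0625, edgeR adjusted p 0.000218). The strand setting of the counting is not given in the sources used here, so reads of both genes cannot be told apart in the shared bases. In MDA-MB-453 NR1D1 held 2.53 ± 0.402 CPM without and 2.37 ± 0.287 CPM with TWEAK, and the replicates overlapped.

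DBP (ENSG00000105516, chr19:48630030-48637379, - strand), the output factor, held 9.98, 12.6 and 12.4 CPM without and 12.1, 13.1 and 13.2 CPM with TWEAK in SKBR3 (0.13, SE 0.10). In MDA-MB-453 it held 37.0 ± 2.52 and 36.0 ± 2.08 CPM (-0.04, SE 0.0587). The replicates overlapped in both lines. SPHK2 runs antisense to DBP, overlaps 10.2% of its exonic bases and had a mean of 23.2 CPM in untreated SKBR3 and 47.5 CPM in untreated MDA-MB-453, against 11.7 and 37.0 CPM for DBP. Its part in the values of DBP, the difference between the lines included, was not tested.

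**Figure D2:**
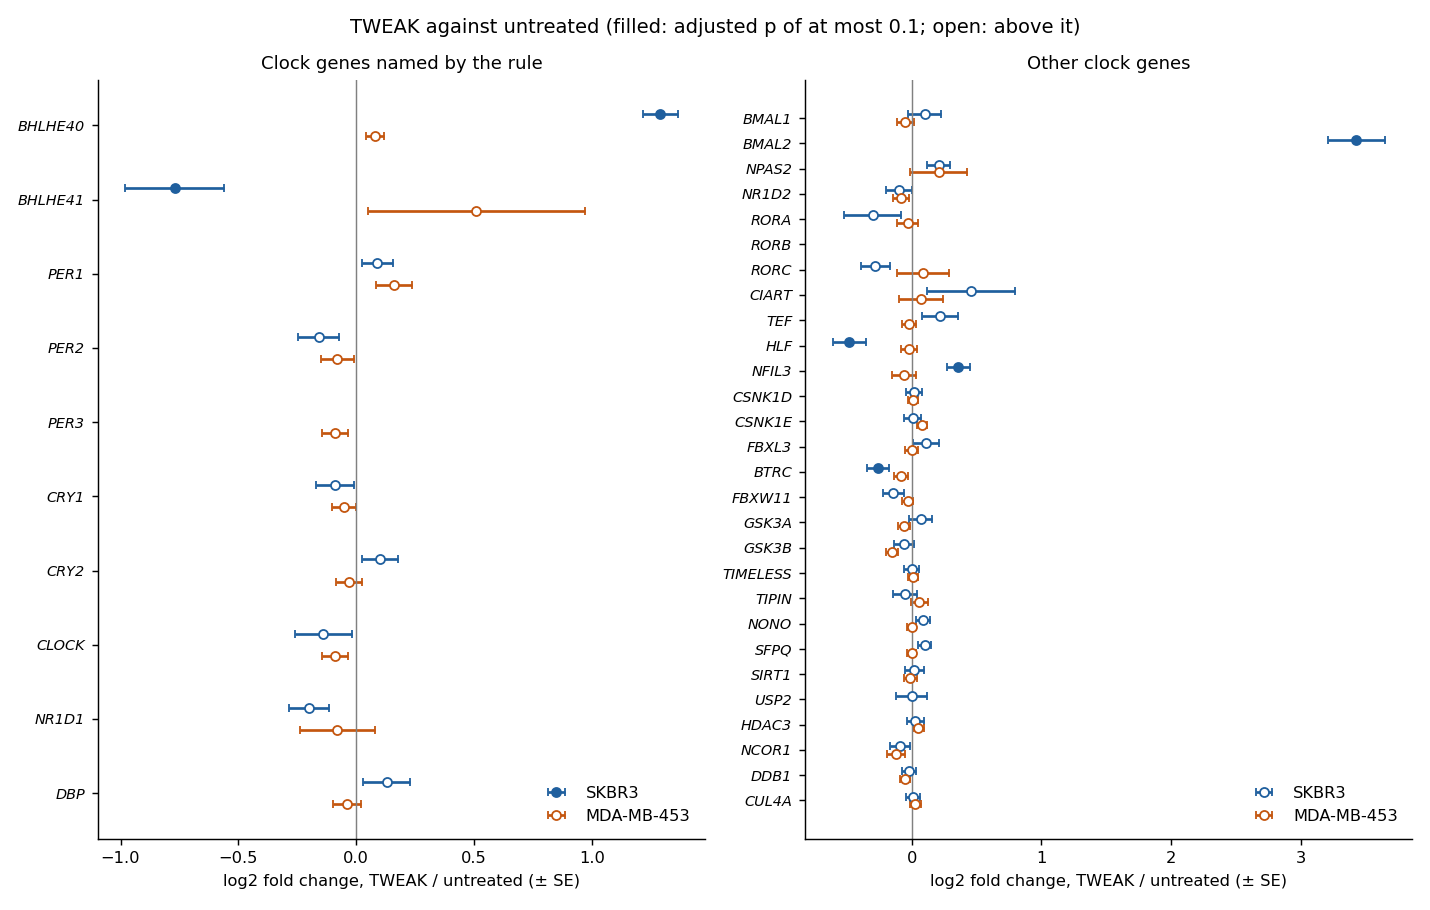
Log2 fold change of TWEAK against untreated with its SE (horizontal axis) for the 10 clock genes and for the other clock genes, in SKBR3 and MDA-MB-453. A gene has a symbol in each line where it was tested, called or not. Filled symbols mark an adjusted p of at most 0.1 in edgeR and open symbols values above it. BHLHE40 at 1.29 and BMAL2 at 3.43 lie to the right in SKBR3, and no symbol is filled in MDA-MB-453.

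The clock genes outside the set were next compared, 28 by name, among them the partners of CLOCK, the ROR receptors, the D-box factors and the kinases and ubiquitin ligases that act on PER and CRY proteins. Of the 27 tested in SKBR3, 2 were called higher, 2 lower and 23 did not pass the test, with a median log2 fold change of 0.01, where 6.60% of all genes were called higher and 3.82% lower. The counts are near those shares. The 2 called higher include BMAL2, which passed the filter on low counts through its treated libraries, so its call is a description. In MDA-MB-453 0 of the 25 tested passed in either direction with edgeR, where 1.29% of all genes were called higher and 0.208% lower. In that line 1 of the 25 had an unadjusted p under 0.05, beside 1571 of all 14929 genes tested, and the median was -0.01.

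BMAL2, a paralogue of BMAL1 that also pairs with CLOCK, held 0.503, 0.786 and 0.371 CPM in untreated and 6.67, 5.17 and 6.22 CPM in TWEAK-treated SKBR3 (log2 fold change 3.43, SE 0.22). These values rest on 14, 19 and 9 counts in the untreated and 165, 129 and 149 in the treated libraries, and every treated replicate lay above every untreated one. In MDA-MB-453 BMAL2 held 6 to 15 counts in every library, too few to be tested there. The difference between the lines was 3.67 (SE 0.57) in the fit of all 12 libraries. BMAL2 passed the filters on low counts through its TWEAK-treated SKBR3 libraries, and one of at least 10 counts in every library removed it, so its values are a description. The NF-κB consensus lay once in its RefSeq promoter window, at position -19 on the opposite strand, with the matched bases in capitals.
BMAL2, chr12:27332586-27332835, + strand: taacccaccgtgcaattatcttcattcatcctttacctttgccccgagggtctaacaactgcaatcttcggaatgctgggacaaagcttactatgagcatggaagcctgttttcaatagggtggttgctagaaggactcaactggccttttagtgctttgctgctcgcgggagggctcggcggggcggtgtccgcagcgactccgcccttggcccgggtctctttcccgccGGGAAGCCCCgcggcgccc

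NFIL3, a repressor that competes with DBP for D-boxes, rose in SKBR3 from 9.04 ± 0.562 to 11.7 ± 0.457 CPM (log2 fold change 0.36, SE 0.0890, edgeR adjusted p 0.0302). HLF, an activator of the same D-box family as DBP, fell from 6.09 ± 0.469 to 4.36 ± 0.629 CPM (-0.48, SE 0.13, adjusted p 0.0479). BTRC, a subunit of the ubiquitin ligase that targets PER proteins, fell from 15.1 ± 0.234 to 12.7 ± 1.03 CPM (-0.26, SE 0.0846, adjusted p 0.0998). For these 3 genes the untreated and treated SKBR3 replicates did not overlap, but each lost its call when single libraries were left out: NFIL3 without untreated replicate 1 or 2 or TWEAK replicate 1 (edgeR adjusted p up to 0.163), HLF without untreated replicate 2 or 3 or TWEAK replicate 1 (up to 0.209), and BTRC without any library other than TWEAK replicate 3 (up to 0.318). BTRC kept its call in 3 of 14 alternatives and lost it, among others, with DESeq2 (adjusted p 0.243), with a replicate block (edgeR adjusted p 0.197) and with no filter on low counts (0.139). The difference between the lines did not pass for HLF (-0.46, SE 0.13, edgeR adjusted p 0.101), NFIL3 (0.43, SE 0.13, adjusted p 0.126) or BTRC (-0.18, SE 0.0964, adjusted p 0.548).

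**Figure D3:**
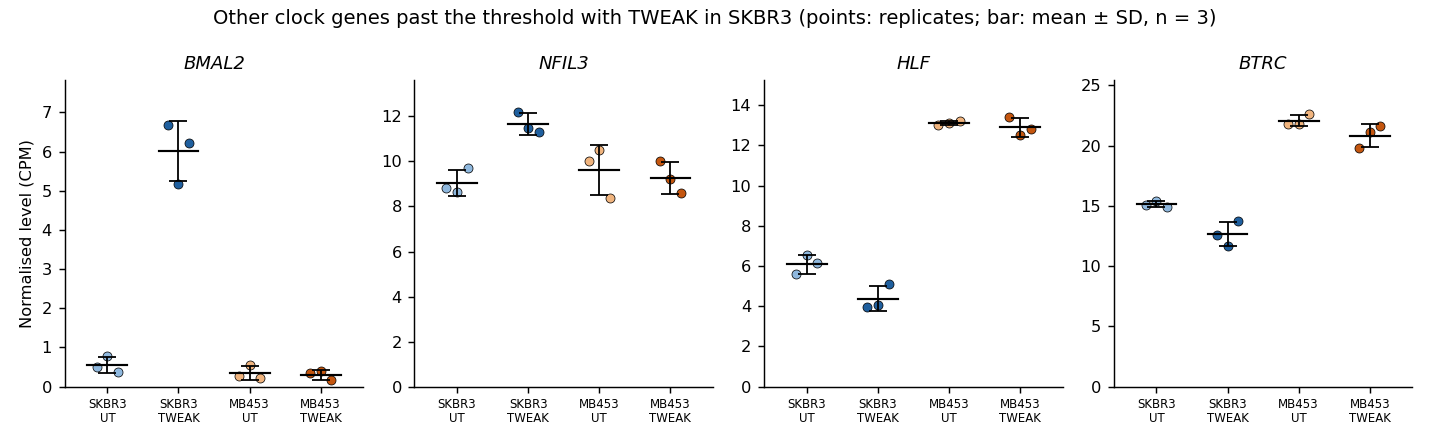
Normalised level (CPM, vertical axis from 0) of BMAL2, NFIL3, HLF and BTRC in the 12 libraries, with points for replicates and bars for the mean ± SD (n = 3). BMAL2 goes from 0.553 to 6.02 CPM with TWEAK in SKBR3 and is at most 0.547 CPM in MDA-MB-453.

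BMAL1, the partner of CLOCK, held 7.54 ± 0.992 CPM without and 8.12 ± 1.08 CPM with TWEAK in SKBR3 (log2 fold change 0.10, SE 0.13, edgeR adjusted p 0.742). In MDA-MB-453 it held 14.4 ± 0.841 and 14.0 ± 0.472 CPM (-0.05, SE 0.0664, adjusted p 0.827). NR1D2, the paralogue of NR1D1, had log2 fold changes of -0.10 (SE 0.10, adjusted p 0.657) and -0.08 (SE 0.0623, adjusted p 0.664). The replicates of both genes overlapped in each line.

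BHLHE40 and BHLHE41 are known targets of hypoxia-inducible factor, and PER1 is one of the glucocorticoid receptor, so genes that respond to either signal were counted beside them. Of 18 hypoxia-induced genes, 16 were tested in SKBR3, where 4 rose and 2 fell, beside 6.60% and 3.82% of all genes. SLC2A1, a glucose transporter, rose by 0.44 (SE 0.0555, edgeR adjusted p 0.000449), ADM, a secreted peptide, by 0.90 (SE 0.17, adjusted p 0.00622), EGLN3, an oxygen sensor, by 0.77 (SE 0.15, adjusted p 0.00791), and BNIP3L, a mitophagy receptor, by 0.34 (SE 0.0813, adjusted p 0.0282) on the log2 scale. PFKFB3, a regulator of glycolysis (-0.30, SE 0.0710, adjusted p 0.0265), and PDK1, a kinase of pyruvate dehydrogenase (-0.37, SE 0.11, adjusted p 0.0702), fell. BNIP3L lost its call without untreated replicate 2 or TWEAK replicate 3 (edgeR adjusted p up to 0.173), and PFKFB3 (up to 0.120) and PDK1 (up to 0.280) lost theirs without any 1 untreated replicate. The median of the 16 was -0.02, against -0.01 over all genes. In MDA-MB-453 0 of the 15 tested passed in edgeR, where 1.29% of all genes were called higher and 0.208% lower. In that line 3 of the 15 had an unadjusted p under 0.05, beside 1571 of all 14929 genes tested. There NDRG1 (-0.39, SE 0.12, edgeR adjusted p 0.247) did not pass in 10 of 14 alternatives. It was called lower with a replicate block, with no filter on low counts and without untreated replicate 1 or TWEAK replicate 2. VEGFA (-0.12, SE 0.0388, edgeR adjusted p 0.256) did not pass in 12 of 14. A replicate block and the fit without TWEAK replicate 2 called it lower.

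Of 12 glucocorticoid-induced genes, 11 were tested in SKBR3, where 5 rose and 3 fell, beside 6.60% and 3.82% of all genes, and the median was 0.06 against -0.01. NFKBIA, the inhibitor of NF-κB and also its target, rose in SKBR3 by 0.70 (SE 0.0698, edgeR adjusted p 7.95e-05) and in MDA-MB-453 by 0.95 (SE 0.0409, adjusted p 7.71e-09) on the log2 scale. ERRFI1, a feedback inhibitor of EGFR, rose in SKBR3 by 0.73 (SE 0.0785, adjusted p 0.000143), and SGK1 (1.09, SE 0.24), PDK4 (0.49, SE 0.0874) and DUSP1 (0.38, SE 0.0710) rose too. MT2A, a metallothionein (-1.62, SE 0.10, adjusted p 2.64e-06), TSC22D3, known as GILZ (-0.52, SE 0.0602, adjusted p 0.000241), and CEBPD (-0.43, SE 0.11, adjusted p 0.0470) fell. CEBPD lost its call with DESeq2 and without any 1 untreated replicate or TWEAK replicate 1 (edgeR adjusted p up to 0.167), and SGK1 lost it with DESeq2 (adjusted p 0.123). In MDA-MB-453 NFKBIA was the 1 gene that rose, 0 fell and 9 did not pass, where 1.29% of all genes rose and 0.208% fell. There MT2A (-0.22, SE 0.0586, edgeR adjusted p 0.124) did not pass in 8 of 14 alternatives and was called lower in the others, DESeq2, a replicate block and the fits without TWEAK replicate 1 or 2 among them. TSC22D3 (-0.12, SE 0.0378, adjusted p 0.222) did not pass in 11 of 14 and was called lower in the others. BNIP3L, PDK1, NDRG1, VEGFA, SGK1, PDK4, DUSP1 and CEBPD were named after their values were seen.

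The lines differed in the levels of these genes before treatment, a contrast that the choice of the set did not use, although it shares the untreated libraries with the TWEAK contrasts. Untreated SKBR3 was compared with untreated MDA-MB-453 by edgeR's quasi-likelihood test in a fit of all 12 libraries. SKBR3 held more of 4 genes and less of 5, and 1 did not pass, where 43.5% of all 17201 genes tested were higher and 40.7% lower. Most genes tested were called, so the share of clock genes called is not a result about them. The lines came in separate count tables, and any batch between them cannot be told apart from the line.

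BHLHE40 was lower in SKBR3, at 0.190 of the MDA-MB-453 level (log2 difference -2.39, SE 0.0599), and the difference between the TWEAK-treated libraries was -1.18 (SE 0.0564). Both share libraries with the contrast that chose it and carry no p. BHLHE41 was higher in SKBR3, 6.58 times (2.69, SE 0.32, edgeR adjusted p 6.00e-07), so the paralogues differed in opposite directions between the lines. They also did so with TWEAK in SKBR3, a contrast that uses the same untreated SKBR3 libraries. BHLHE41 kept its call in that contrast in 8 of 14 alternatives. PER3 was lower in SKBR3 by the widest margin of the set, at 0.00521 of the MDA-MB-453 level (-7.58, SE 0.13). It was in this fit through its MDA-MB-453 libraries alone, so that value is a description. PER2 was lower (-1.16, SE 0.0853, adjusted p 7.48e-10) and PER1 higher (1.73, SE 0.0682, adjusted p 1.05e-13), so the period genes did not share a direction. CRY2 (-0.66, SE 0.0623, adjusted p 2.40e-08) and DBP (-1.67, SE 0.0850, adjusted p 4.08e-12) were lower in SKBR3. CLOCK (0.52, SE 0.10, adjusted p 0.000138) and NR1D1 (2.58, SE 0.11, adjusted p 3.90e-13) were higher. In these 9 genes the untreated replicates of the lines did not overlap. CRY1 did not pass (0.10, SE 0.0663, adjusted p 0.162), and its replicates overlapped. Its edgeR adjusted p ran from 0.0294 to 0.501 over the alternatives, it did not pass in 14 of 19, and those in which it passed included the fits without untreated replicate 3 or TWEAK replicate 2 of SKBR3.

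**Figure D4:**
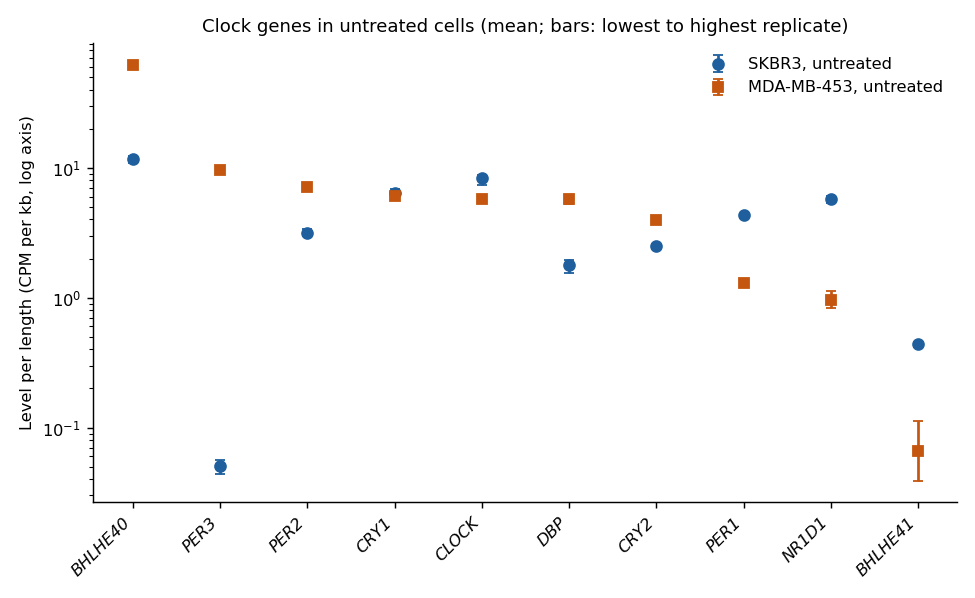
Level per length (CPM per kilobase of exonic sequence, log axis) of the 10 clock genes in untreated SKBR3 and MDA-MB-453, as the mean with a bar from the lowest to the highest of 3 replicates. PER3 shows the widest gap, at 0.0503 and 9.65 CPM per kb, and CRY1 the narrowest, at 6.45 and 6.01 CPM per kb.

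Levels of different genes were ordered after division by exonic length. In untreated SKBR3 BHLHE40 came first at 11.7 ± 0.836 CPM per kb, followed by CLOCK at 8.33 ± 0.801 and CRY1 at 6.45 ± 0.519. NR1D1, PER1, PER2, CRY2, DBP, BHLHE41 and PER3 came next, down to 0.438 CPM per kb for BHLHE41 and 0.0503 for PER3. CRY1 and NR1D1 were the neighbours in that order whose replicates overlapped. With TWEAK, BHLHE40 lay at 28.8 ± 1.47 CPM per kb in SKBR3, the order of the 10 was the same, and CLOCK overlapped CRY1 and PER2 overlapped CRY2. In untreated MDA-MB-453 BHLHE40 was again first, at 61.6 ± 1.95 CPM per kb, but PER3 was next at 9.65, then PER2 at 7.10, and NR1D1 at 0.960 and BHLHE41 at 0.0665 came last. CRY1, CLOCK and DBP followed PER2 and overlapped as neighbours. TWEAK-treated MDA-MB-453 kept that order except that DBP and CLOCK, which overlapped, changed places.

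Among the other clock genes, 8 were higher and 12 lower in untreated SKBR3 of the 27 tested, beside 43.5% and 40.7% of all genes, so the counts are not a result about the list. BMAL1 was lower (-0.93, SE 0.10, edgeR adjusted p 1.83e-07) and NR1D2 higher (0.85, SE 0.0910, adjusted p 1.43e-07). NPAS2, a paralogue of CLOCK, was higher in SKBR3 by 4.18 (SE 0.13, adjusted p 6.30e-15) on the log2 scale, and the D-box factors TEF (-2.72, SE 0.0927, adjusted p 1.37e-14) and HLF (-1.11, SE 0.0906, adjusted p 3.54e-09) were lower, as DBP was. RORA, a nuclear receptor that activates BMAL1, was lower (-2.73, SE 0.13, adjusted p 2.66e-12). NPAS2, TEF and RORA were named after their values were seen.

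NR1D1 lies on chromosome 17 near ERBB2, in a region whose copy number is known to differ among HER2-positive lines, so 15 genes of the region were given beside it. IKZF3 was at the limit of detection in MDA-MB-453, with at most 2 counts in each library, and was left out. The other 14 were all higher in untreated SKBR3, as were 43.5% of all genes, by 1.28 (PSMD3) to 4.20 (RAPGEFL1) on the log2 scale with a median of 3.11, and 11 of them differed by more than NR1D1. ERBB2 itself differed by 3.09 (SE 0.0458, edgeR adjusted p 2.75e-19) and THRA by 3.39 (SE 0.0906, adjusted p 4.84e-16). No copy number was measured here, and the part of the region in the NR1D1 difference was not tested. With TWEAK in SKBR3, THRA and CDC6 (-0.21, SE 0.0548, adjusted p 0.0380) fell, IKZF3 rose (0.63, SE 0.12, adjusted p 0.00786) and 12 of the 15 did not pass, where 6.60% of all genes rose and 3.82% fell. CDC6 lost its call with a replicate block and without untreated replicate 1 or 2 or TWEAK replicate 1 (edgeR adjusted p up to 0.219).

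**Figure D5:**
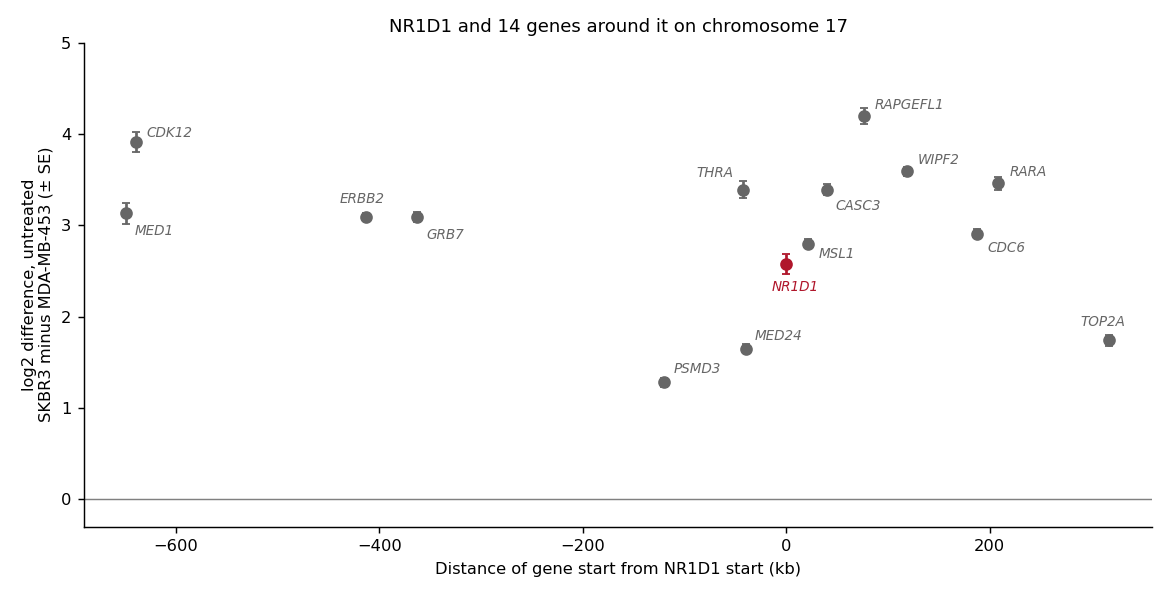
Log2 difference of untreated SKBR3 minus untreated MDA-MB-453 with its SE (vertical axis) for NR1D1 and 14 genes around it, by the distance of each gene start from that of NR1D1 in kb (horizontal axis). All lie above 0, from 1.28 to 4.20, and NR1D1 lies at 2.58.

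The genes whose pattern was most like that of BHLHE40 were found by the root mean square difference of log2 CPM, centred on each gene's mean, over the 12 libraries and 12445 genes with a mean of at least 1 CPM. They were LAMC1 (0.120), a laminin subunit, STAP2 (0.138), a signalling adaptor, ALDH5A1 (0.193), an enzyme of GABA breakdown, TRANK1 (0.209) and FLNA (0.229), an actin-binding protein. Their log2 fold changes with TWEAK in SKBR3 were 1.77, 1.58, 1.03, 1.27 and 0.68, and in MDA-MB-453 0.07, 0.09, -0.07, 0.40 and 0.04. Ranked by Pearson's r over the same libraries, LAMC1 and STAP2 were again among the 5 most like genes, with r of 0.993 and 0.995, and the others were FAAH2, ZNF503 and ADGRB2. The 12 points of each r fall into 4 groups, so it mostly reflects the difference between the lines and the TWEAK effect in SKBR3.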

How the data were processed

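The 12 samples were grouped by line and treatment from their labels. The authors deposited raw counts per gene, not normalised. They trimmed reads with Trimmomatic, mapped them to hg38 with STAR and counted them with featureCounts. Their versions, annotation release and strand setting are not given in the sources used here. The paper names a directional RNA kit and the labels a DNA kit. Of 62696 identifiers, 62625 matched GENCODE release 44, which gave symbols, positions and exonic lengths.

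TWEAK was compared with untreated within each line with edgeR 4.0.16 in R 4.3.3 (limma 3.58.1): filterByExpr, TMM, two-sided quasi-likelihood tests and Benjamini-Hochberg adjustment over all genes tested, threshold 0.1. The interaction and the untreated lines were tested in a 4-group fit of 12 libraries. CPM used TMM factors over 12 libraries. The code was tested on simulated counts, and every result is from the deposited ones. Alternatives were DESeq2 1.42.0 and its size factors, other filters, an adjusted p of 0.05, a 12-library fit, a replicate block, a correction for GC content and length, other libraries for the line contrast and each library left out.

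The members, lists and rules were chosen with earlier results of these data known. Named genes are the 10 members, other clock genes past the threshold in either line with BMAL1 and NR1D2, at most 4 genes with the smallest p from each context list, and the 5 genes most like BHLHE40. Genes named beyond this rule were chosen after their values were seen. The paper describes the replicates as biological and its cell line experiments as independent repeats on separate days. The labels tie no replicate number to a day. With 3 against 3 an exact permutation test cannot go below 0.1, and none is given. Values of a few listed genes are not reported here.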

Additional observations from a re-analysis of the deposited data

Results flagged for a closer look

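For BHLHE40 the TWEAK effect in SKBR3 minus that in MDA-MB-453 was 1.21 (SE 0.0807) on the log2 scale. This gene was chosen with its response known, so the value is a description. It lay between 1.16 and 1.24 when any 1 library was left out.

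Among the other clock genes the TWEAK effect on BMAL2 in SKBR3 exceeded that in MDA-MB-453 by 3.67 (SE 0.57) on the log2 scale. It was too low in MDA-MB-453 to be tested within that line and entered the fit through its TWEAK-treated SKBR3 libraries, so the value is a description.

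The interaction of line and TWEAK passed the threshold for the luminal marker KRT19 at 0.35 (SE 0.10, edgeR adjusted p 0.0939), a call kept in 8 of 19 alternatives. In the context lists it passed for BNIP3L at 0.41 (SE 0.0868, edgeR adjusted p 0.0133) and CEBPD at -0.64 (SE 0.15, adjusted p 0.0242), and among those with the smallest p in SKBR3 it passed for SLC2A1 at 0.38 (SE 0.0666, edgeR adjusted p 0.00276), EGLN3 at 0.76 (SE 0.14, adjusted p 0.00374), ERRFI1 at 0.78 (SE 0.0967, adjusted p 0.000122), MT2A at -1.40 (SE 0.13, adjusted p 5.13e-06) and TSC22D3 at -0.39 (SE 0.0664, adjusted p 0.00197). The fold change was higher in SKBR3 where the value is above 0 and lower there where it is below 0.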

How the results depend on the processing

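Counts are of genes past the threshold. With DESeq2, 0 clock genes of the set were lower in SKBR3, against 3 with the GC and length correction. The other clock genes lower in SKBR3 were 1 at an adjusted p of 0.05, with DESeq2, with its size factors and with at least 10 counts in every library, a filter that also left 1 higher, and 0 higher and 1 lower in the interaction, as DESeq2 size factors left 1 lower. All genes lower in SKBR3 numbered 363 at 0.05, 1068 in the 12-library fit and 1654 with the GC and length correction, which gave 1244 higher. In MDA-MB-453 no filter gave 302 higher, 178 lower and 1 other clock gene lower, an adjusted p of 0.05 gave 17 lower, the 12-library fit 13 and the GC and length correction 117. The interaction had 95 lower at 0.05. Without TWEAK replicate 2 of both lines, chosen after seeing the data, it had 1113 higher and 964 lower, and 4 and 1 of the other clock genes.

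The replicate numbers were not taken to pair the samples, since not every correlation was over 0.1: correlations of same-numbered deviations were 0.169, -0.144 and -0.233 (SKBR3) or 0.129, 0.133 and 0.0239 (MDA-MB-453). In MDA-MB-453 every sample correlated best with its own number, a hint of pairing from the data, and in SKBR3 not every one did. With a replicate block, 387 genes and 1 other clock gene were lower in SKBR3, MDA-MB-453 had 490 genes higher and 404 lower, with 2 other clock genes lower, and 101 were lower in the interaction.

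When each library was left out in turn, SKBR3 had 686 to 1589 genes higher and 240 to 1191 lower, the set 1 to 1 and 0 to 1, and the other clock genes 1 to 5 and 0 to 2. MDA-MB-453 had 120 to 1003 and 10 to 1098, the set 0 to 3 lower and the other clock genes 0 to 2 lower. The interaction had 304 to 645 and 90 to 505, with 1 to 2 and 0 to 1 other clock genes. The untreated lines had 7442 to 7799 and 6883 to 7251, with 4 to 5 of the set higher. NR1D2 in SKBR3 lay between -0.17 and 0.01 (without TWEAK replicate 2), NFIL3 in MDA-MB-453 between -0.15 and 0.00 (without untreated replicate 2 or TWEAK replicate 3), and the line difference of NFIL3 was 0.34 in TWEAK-treated libraries. The cause of these shifts was not tested.

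BHLHE41, PER3 in SKBR3 and BMAL2 rest on few counts, so small changes in them were not detectable at this depth.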
